A study of Mus musculus with 9 samples.

Results

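The mouse mitochondrial genome carries 37 genes, and all 37 were found in the deposited expression table as the genes whose symbol begins with mt-, out of 32761 genes in all. They comprise 13 mRNAs, 2 ribosomal RNAs and 22 transfer RNAs. Both strands of this small circular genome are transcribed by the mitochondrial RNA polymerase as long precursors, and most mRNAs and rRNAs are released when the tRNAs that lie between them are cut out. The mRNAs encode core subunits of the respiratory chain complexes I, III and IV and of ATP synthase (complex V), which assemble with subunits encoded in the nucleus. Liver cells are rich in mitochondria, and their mitochondrial mRNAs are among the most abundant polyadenylated RNAs of the tissue.

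RNA sequencing gave 9 libraries of bulk mouse tumour tissue, 3 per group, from tumours raised in situ from Hepa1-6-luc cells, a mouse hepatoma line marked with luciferase, and taken on day 14. Mice of the Co+Len@OVA+anti-PD1 group received nanoclusters loaded with drug (2 mg/mL, every 3 days) by tail vein together with an antibody to the checkpoint receptor PD1 (injections of 50 μg at intervals of 4 days). Mice of the Lenvatinib+anti-PD1 group received free lenvatinib, an inhibitor of receptor tyrosine kinases, at an equivalent concentration and interval, with the same antibody. The labels name no agent for the Control group and do not spell out Co, Len or OVA. All groups carried tumours of the same line, no strain or age is given, and the same Control libraries enter both comparisons with Control.

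The values are FPKM, fragments scaled by gene length and library total, so levels of genes of different length can be set side by side, but the depth of each library is unknown. FPKM totals were 332241 to 347466 in Co+Len@OVA+anti-PD1, 357446 to 372159 in Lenvatinib+anti-PD1 and 331611 to 372794 in Control. In each group library 3 tended to lie between libraries 1 and 2. It did so for 33 of the 37 mitochondrial genes in Co+Len@OVA+anti-PD1, for 31 in Lenvatinib+anti-PD1 and for 26 in Control. Of all 15353 genes tested it did so for 65.5% in Co+Len@OVA+anti-PD1, 45.4% in Lenvatinib+anti-PD1 and 66.7% in Control. If the third libraries are not independent tumours, p-values from 9 libraries are too small, so counts are also given from libraries 1 and 2 alone. Hepatoma markers (Afp, Gpc3, H19 and Igf2) summed to 238 to 246 FPKM in Co+Len@OVA+anti-PD1, 381 to 436 in Lenvatinib+anti-PD1 and 373 to 443 in Control. None was at 0 in any library. Their medians were 2.52, 1.92 and 2.1 in Co+Len@OVA+anti-PD1, 0.863, 47.7 and 19.2 in Lenvatinib+anti-PD1 and 2.05, 2.13 and 2.51 in Control. The sums thus do not stand for each of the 4 genes. Since the tumours were sequenced in bulk, fewer cells of a type and less RNA per cell cannot be told apart in any result that follows.

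Part of the mitochondrial genome has a near-identical copy on chromosome 1, and the table lists the genes of that copy separately. The copies of mt-Co2 (Gm28661), mt-Atp6 (Gm10925), mt-Co3 (Gm28437) and mt-Nd4l (Gm10222) were 100% identical to the mitochondrial gene over 99.0% to 99.9% of its length. The copy of mt-Nd3 (Gm28438) differed at 1 base of 345 aligned, the substitution T3C, counted from 1 at the 5′ end of the transcript. It is shown because it is the only aligned base that tells these 2 genes apart, and it is in capitals in the first 33 bases of each:
mt-Nd3: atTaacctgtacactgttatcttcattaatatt
Gm28438: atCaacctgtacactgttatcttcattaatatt

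The copies were listed at nearly the same level as their mitochondrial gene in every library, with a ratio of copy to mitochondrial FPKM of 0.991 to 1.03 for mt-Co2, 1.04 to 1.07 for mt-Atp6, 0.991 to 1.01 for mt-Co3, 0.974 to 0.992 for mt-Nd3 and 0.989 to 1.03 for mt-Nd4l. Shorter identical stretches of mt-Nd4 (63.6% of the gene, Gm28439) and mt-Co1 (31.3%, Gm29216) had ratios of 0.649 to 0.694 and 0.282 to 0.341. Reads from identical sequence cannot be assigned, so the listed levels of these 7 genes are uncertain and may hold only a share of the reads. With the copy added, the Control mean would be 7571 FPKM in place of 3794 for mt-Co2, 10013 in place of 4854 for mt-Atp6, 7801 in place of 3903 for mt-Co3, 577 in place of 291 for mt-Nd3 and 1737 in place of 863 for mt-Nd4l. The log2 differences of the copies lay beside those of their genes. They were 0.90 (Gm28438) and 0.91 (mt-Nd3) between Co+Len@OVA+anti-PD1 and Control, and 1.44 for both genes between Lenvatinib+anti-PD1 and Control. Since copy and gene may hold shares of the same reads, this nearness cannot show that differences between groups are untouched. Copies on chromosome 2 with 95.91% to 97.61% identity were far lower, for example 5.66 to 15.4 FPKM for Gm13340, the copy of mt-Co1.

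**Figure D1:**
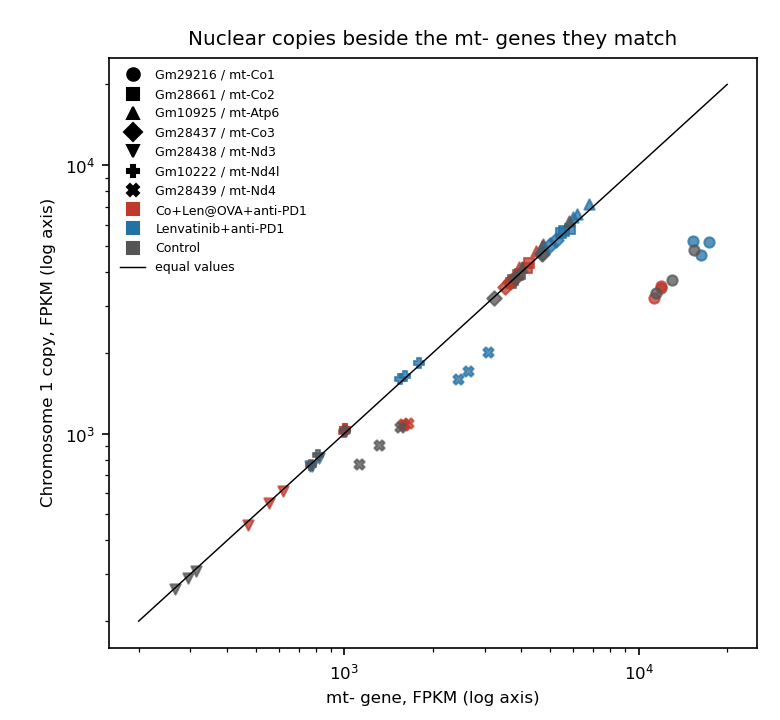
FPKM of 7 mitochondrial mRNAs (horizontal log axis) against FPKM of their copies on chromosome 1 (vertical log axis), 1 point per library, with a line where both are equal. The 5 genes copied over 99.0% or more of their length lie along the line in all 9 libraries, and mt-Nd4 and mt-Co1, copied in part, lie below it.

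The 37 genes together held 12.3%, 12.8% and 12.7% of the FPKM total in the Co+Len@OVA+anti-PD1 libraries, 16.3%, 17.9% and 16.7% in the Lenvatinib+anti-PD1 libraries and 13.2%, 11.1% and 11.9% in the Control libraries. All 3 Lenvatinib+anti-PD1 libraries stood above the other 6, and the Co+Len@OVA+anti-PD1 libraries lay within the range of Control. With the chromosome 1 copies the shares were 17.5% to 18.3% in Co+Len@OVA+anti-PD1, 23.6% to 25.4% in Lenvatinib+anti-PD1 and 16.0% to 19.1% in Control. Of the 25 genes with the highest mean FPKM in the whole table, 9 were mitochondrial and 5 were their copies. mt-Co1, the catalytic core of cytochrome c oxidase, was the highest of all genes at a mean of 13777 FPKM over the 9 libraries.

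Among the mRNAs in Control, mt-Co1 (13298 ± 2023 FPKM; SD, n = 3 as for all means here) was far above mt-Atp6 (4854 ± 906), mt-Atp8 (4654 ± 826), mt-Co3 (3903 ± 728) and mt-Co2 (3794 ± 138). Of these last 4, mt-Co2 and mt-Atp6 had separate ranges, and every other pair overlapped, so that their order is not resolved. They were followed by mt-Nd1 (2953 ± 130.1), mt-Cytb (2472 ± 485), mt-Nd2 (1564 ± 164), mt-Nd4 (1326 ± 216), mt-Nd4l (863 ± 123), mt-Nd5 (782 ± 142), mt-Nd6 (586 ± 166) and mt-Nd3 (291 ± 24.1). The neighbours mt-Nd1 and mt-Cytb, mt-Nd2 and mt-Nd4, mt-Nd4l and mt-Nd5, and mt-Nd5 and mt-Nd6 also overlapped. As listed, mt-Nd3 was the lowest mRNA in every library. The order given here leaves out the chromosome 1 copies and depends on them. With the copy added, the Control mean of mt-Nd3 would be 577 beside 586 for mt-Nd6. That of mt-Atp6 would be 10013 beside 4654 for mt-Atp8.

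**Figure D2:**
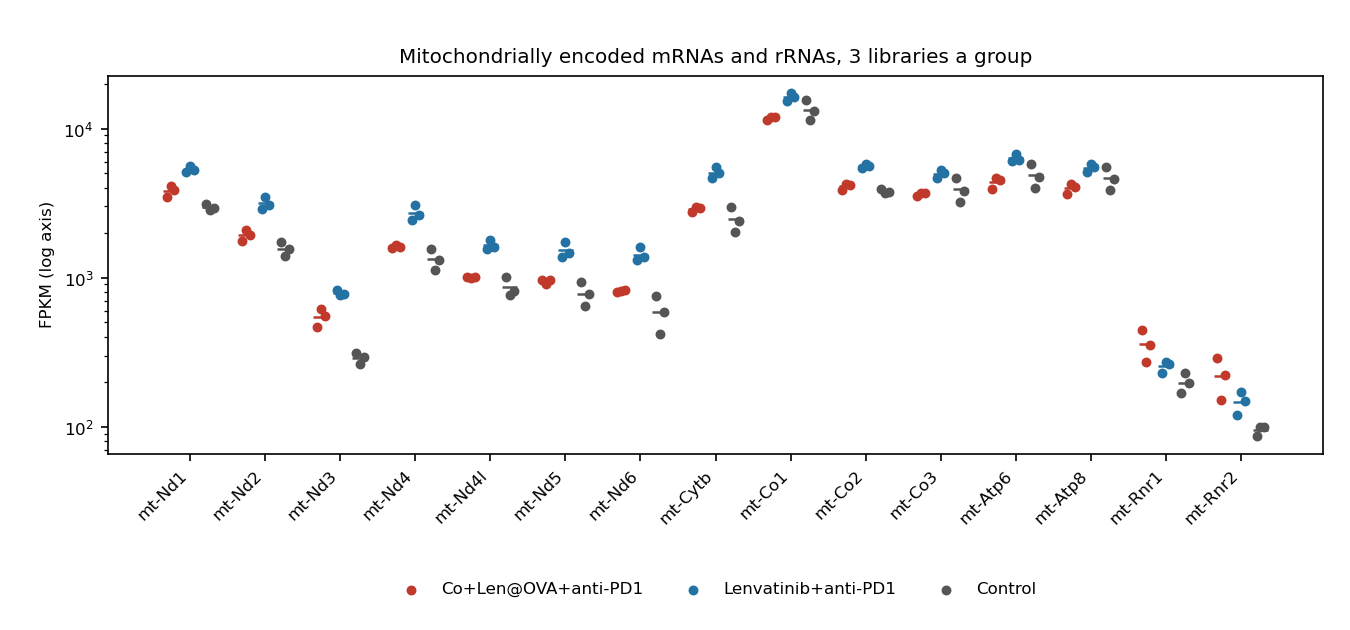
FPKM (log axis) of the 13 mRNAs and 2 rRNAs in each library, with Co+Len@OVA+anti-PD1, Lenvatinib+anti-PD1 and Control from left to right for each gene; points are libraries. For every mRNA the 3 Lenvatinib+anti-PD1 points lie above the 3 Co+Len@OVA+anti-PD1 points, and for both rRNAs these groups overlap.

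In Lenvatinib+anti-PD1 tumours most mitochondrial mRNAs were more abundant than in Control, whereas in Co+Len@OVA+anti-PD1 tumours few were. Tests used limma on log2(FPKM + 0.5), with p-values adjusted by Benjamini-Hochberg over the 15353 genes whose mean reached 0.5 FPKM, 36 mitochondrial genes among them, and "rose" and "fell" refer to an adjusted p under 0.05. Between Co+Len@OVA+anti-PD1 and Control, 13 of the 36 rose and 0 fell, where 20.9% of all genes tested rose and 12.7% fell. These were 2 of 13 mRNAs, both rRNAs and 9 of 21 tRNAs. Of these tRNAs mt-Tf, mt-Td, mt-Tg, mt-Ts2 and mt-Tl2 averaged about 0.5 FPKM or less in Control. They passed the filter on low values through a treated group, so their calls add no support to the counts. The median log2 difference of the mRNAs was 0.24, from -0.21 to 0.91, against 0.13 for all genes, and 9 of 13 were positive. The groups did not overlap for 5 of 13 mRNAs, all higher in Co+Len@OVA+anti-PD1, where 32.4% of all genes were higher and 17.3% lower without overlap. By libraries 1 and 2 alone 0 members passed in limma, and 80 genes (0.521%) passed in all. In that fit 11 of the 36 members had an unadjusted p under 0.05, where 3382 of the 15353 genes tested did.

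Between Lenvatinib+anti-PD1 and Control, 18 of the 36 rose and 0 fell, where 13.8% of all genes rose and 9.87% fell. They were 9 of 13 mRNAs, 0 of 2 rRNAs and 9 of 21 tRNAs. Of these tRNAs mt-Tg, mt-Th, mt-Ts2 and mt-Tl2 averaged about 0.5 FPKM or less in Control and passed the filter through a treated group. Their calls add no support to the counts. The median log2 difference of the mRNAs was 0.94, from 0.24 to 1.44, against 0.05 for all genes. For 11 of 13 mRNAs every Lenvatinib+anti-PD1 library was above every Control library, where 26.1% of all genes were higher without overlap. Without Control replicate 1, 29 members rose, among 2374 of the 15353 genes tested. Without Lenvatinib+anti-PD1 replicate 2, 17 members rose, among 1373 genes. By libraries 1 and 2 alone 0 members passed in limma, and 53 genes (0.345%) passed in all. In that fit 18 of the 36 members had an unadjusted p under 0.05, where 2560 of the 15353 genes tested did.

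Between Co+Len@OVA+anti-PD1 and Lenvatinib+anti-PD1, 15 of the 36 fell and 1 rose, where 12.0% of all genes fell and 17.3% rose. The gene that rose, mt-Td, averaged under 0.5 FPKM in Lenvatinib+anti-PD1 and passed the filter on low values through Co+Len@OVA+anti-PD1. All 13 mRNAs fell, by 0.45 to 0.81 on the log2 scale with a median of -0.53 against 0.07 for all genes, and with no overlap between the groups, where 20.4% of all genes were lower without overlap. No rRNA passed. Of the 13 mRNAs, 8 fell in all 9 fits that left out 1 library. Without Lenvatinib+anti-PD1 replicate 2, 9 members fell, among 1450 of the 15353 genes tested. Without Co+Len@OVA+anti-PD1 replicate 2, 4 members rose, among 2525 genes. By libraries 1 and 2 alone 0 members passed in limma, and 365 genes (2.38%) passed in all. In that fit 12 of the 36 members had an unadjusted p under 0.05, where 2864 of the 15353 genes tested did. This comparison shares its libraries with the other comparisons, so its result is not independent of them.

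Markers of other cell types differed between the same tumours. Summed over 17 skeletal and heart muscle markers, a tissue rich in mitochondria, FPKM were 49.6, 54.8 and 55.7 in Co+Len@OVA+anti-PD1, 38.7, 5035 and 2001 in Lenvatinib+anti-PD1 and 4.16, 5.43 and 49.8 in Control, with 7, 3 and 2 of the 17 at 0 in the Control libraries. Summed mitochondrial FPKM were 40836, 44309 and 43595 in Co+Len@OVA+anti-PD1, 58279, 66685 and 61846 in Lenvatinib+anti-PD1 and 49234, 36813 and 41703 in Control. Their order over libraries was that of the muscle sums in Lenvatinib+anti-PD1 and not in the other groups. In Lenvatinib+anti-PD1 the erythroid, macrophage, adipocyte and hepatoma marker sums had this order too. An order of 3 libraries, with library 3 mostly between the others, thus singles out no cell type. Sums over 12 hepatocyte markers, none at 0 in any library, were 766, 1075 and 945 in Co+Len@OVA+anti-PD1, 4204, 4058 and 4310 in Lenvatinib+anti-PD1 and 5590, 2425 and 3554 in Control. Their medians were 5.33, 7.77 and 6.85 in Co+Len@OVA+anti-PD1, 226, 224 and 230 in Lenvatinib+anti-PD1 and 165, 35.1 and 76.7 in Control. By median every Lenvatinib+anti-PD1 library was above every Control library, whereas by sum these groups overlapped. The mitochondrial sums had the order of the hepatocyte sums in Co+Len@OVA+anti-PD1 and Control and not in Lenvatinib+anti-PD1. Erythroid sums (2063, 2995 and 2530) shared this order in Co+Len@OVA+anti-PD1, as did hepatoma sums (443, 373 and 409) in Control. These matches thus single out no cell type either. Erythroid marker sums were 2063 to 2995 in Co+Len@OVA+anti-PD1, 176 to 433 in Lenvatinib+anti-PD1 and 295 to 603 in Control, and macrophage sums 946 to 1138 in Co+Len@OVA+anti-PD1, 292 to 322 in Lenvatinib+anti-PD1 and 215 to 1012 in Control. Sums over 7 white and brown adipocyte markers were 221, 41.3 and 130 in Co+Len@OVA+anti-PD1, 46.5, 587 and 265 in Lenvatinib+anti-PD1 and 5.28, 8.14 and 15.4 in Control. T cell marker sums were 107 to 148 in Co+Len@OVA+anti-PD1, 43.4 to 45.8 in Lenvatinib+anti-PD1 and 12.6 to 55.5 in Control. The part of these cell types in the mitochondrial differences was not tested.

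**Figure D3:**
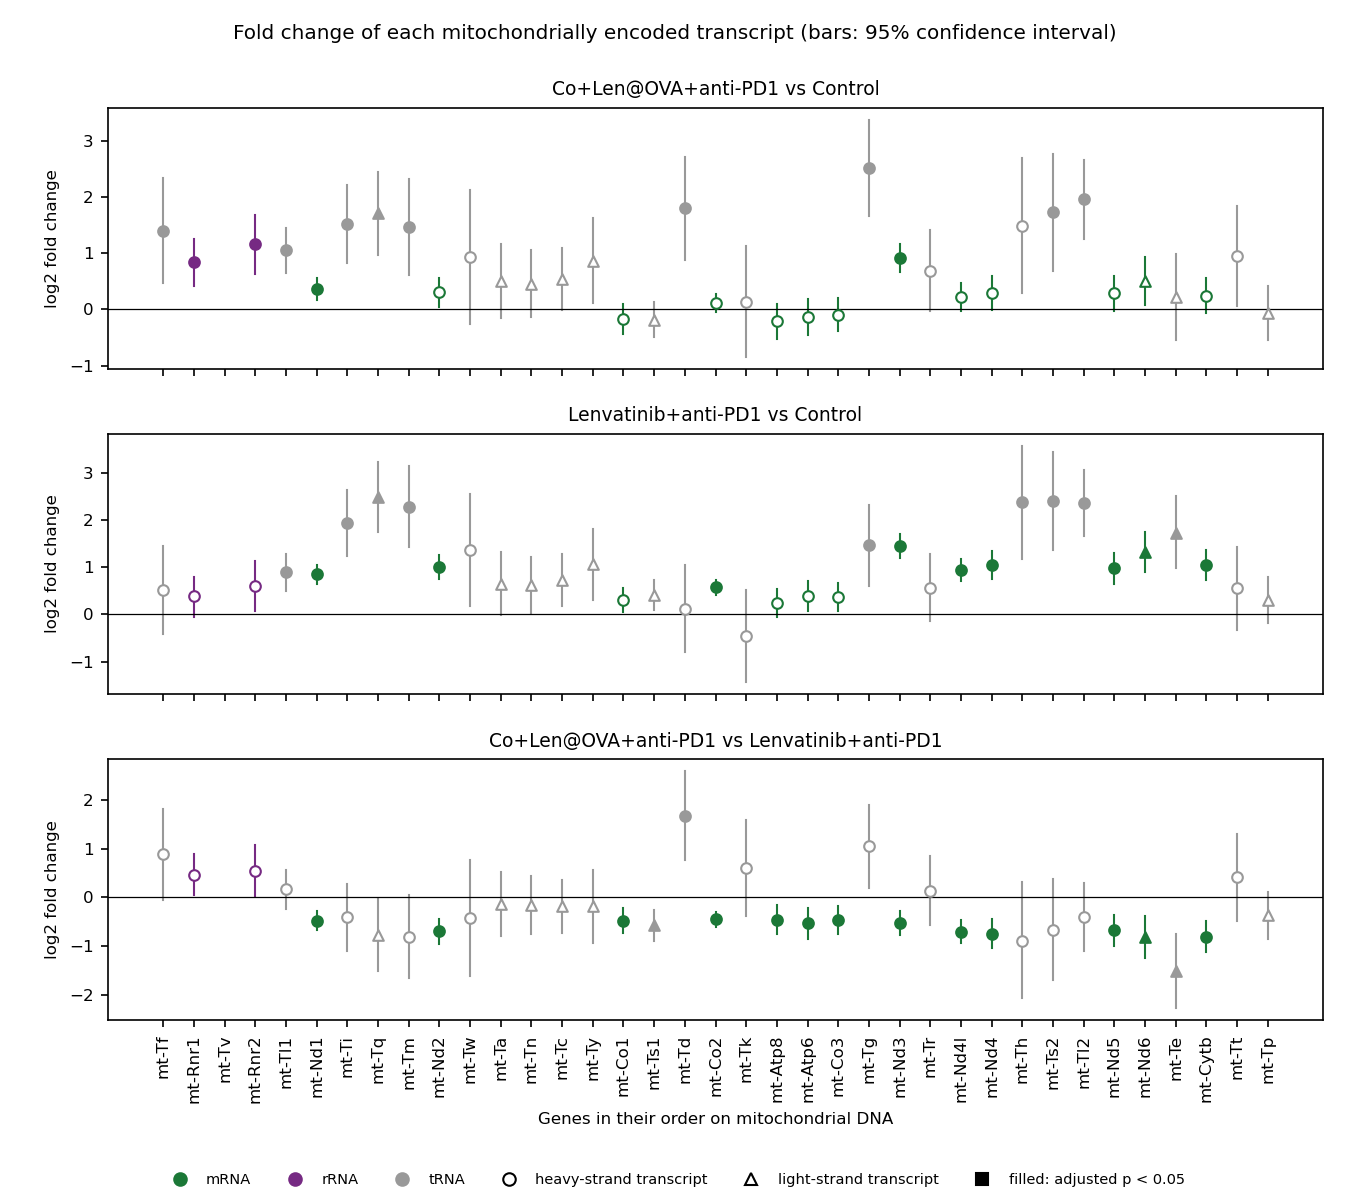
Log2 difference with its 95% confidence interval from limma for the 36 mitochondrial genes tested, in their order along the mitochondrial genome. The panels show Co+Len@OVA+anti-PD1 against Control, Lenvatinib+anti-PD1 against Control and Co+Len@OVA+anti-PD1 against Lenvatinib+anti-PD1. Filled symbols have an adjusted p under 0.05 and triangles mark light-strand transcripts. In the last panel all 13 mRNAs are filled and below 0.

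Complex I, NADH dehydrogenase, takes electrons from NADH and holds 7 of the 13 encoded proteins. All 7 of its mRNAs rose in Lenvatinib+anti-PD1 against Control, 2 of 7 rose in Co+Len@OVA+anti-PD1 against Control, and all 7 fell in Co+Len@OVA+anti-PD1 against Lenvatinib+anti-PD1. mt-Nd3, a small membrane subunit, had 469, 619.7 and 556 FPKM in Co+Len@OVA+anti-PD1, 820.4, 767 and 775 in Lenvatinib+anti-PD1 and 313, 265 and 294 in Control. The 3 groups did not overlap, and mt-Nd3 had the largest log2 difference of any mRNA from Control in Co+Len@OVA+anti-PD1. In Lenvatinib+anti-PD1 it was also largest, except that mt-Nd6 passed it (1.52 against 1.49) without Control replicate 1. It rose by 0.91 (SE 0.11, adjusted p = 0.000946) in Co+Len@OVA+anti-PD1 and by 1.44 (SE 0.11, adjusted p = 0.00018) in Lenvatinib+anti-PD1, and fell by 0.53 (SE 0.11, adjusted p = 0.00943) between these groups. By libraries 1 and 2 alone the same differences were 0.90, 1.46 and -0.56, with adjusted p of 0.101, 0.0684 and 0.21 in limma.

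mt-Nd1, a membrane subunit near the quinone site, had 3446, 4113 and 3855 FPKM in Co+Len@OVA+anti-PD1, 5077, 5575 and 5273 in Lenvatinib+anti-PD1 and 3097, 2843 and 2919 in Control. Here too the groups were fully apart, Lenvatinib+anti-PD1 highest and Control lowest. The log2 difference from Control was 0.36 (SE 0.08, adjusted p = 0.0141) in Co+Len@OVA+anti-PD1, a call lost when single libraries were left out, and 0.85 (SE 0.08, adjusted p = 0.000522) in Lenvatinib+anti-PD1. mt-Nd2, a proton-pumping membrane subunit, had 1765, 2085 and 1939 FPKM in Co+Len@OVA+anti-PD1, 2865, 3477 and 3091 in Lenvatinib+anti-PD1 and 1731, 1403 and 1558 in Control. Lenvatinib+anti-PD1 was again highest, and the lowest Co+Len@OVA+anti-PD1 library was just above the highest Control library. It rose by 1.01 (SE 0.11, adjusted p = 0.000797) in Lenvatinib+anti-PD1, while its difference of 0.31 (adjusted p = 0.0643) in Co+Len@OVA+anti-PD1 did not pass.

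mt-Nd4 and mt-Nd4l share 7 bases and are read from 1 bicistronic mRNA. mt-Nd4 had 1582, 1648 and 1600 FPKM in Co+Len@OVA+anti-PD1, 2432, 3075 and 2638 in Lenvatinib+anti-PD1 and 1551, 1119 and 1308 in Control. mt-Nd4l had 1009, 995 and 1006 FPKM in Co+Len@OVA+anti-PD1, 1549, 1790 and 1603 in Lenvatinib+anti-PD1 and 1003, 770.1 and 816 in Control. For both, Lenvatinib+anti-PD1 stood clear of the other groups, and Control library 1 was close to the Co+Len@OVA+anti-PD1 range for mt-Nd4 and within it for mt-Nd4l. In Lenvatinib+anti-PD1 mt-Nd4 rose by 1.04 (SE 0.13, adjusted p = 0.00141) and mt-Nd4l by 0.94 (SE 0.11, adjusted p = 0.000893). The ratio of mt-Nd4l to mt-Nd4 was 0.604 to 0.638 in Co+Len@OVA+anti-PD1, 0.582 to 0.637 in Lenvatinib+anti-PD1 and 0.624 to 0.688 in Control, with all groups overlapping.

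mt-Nd5, the longest mitochondrial mRNA gene at 1824 bases, had 967, 908 and 958 FPKM in Co+Len@OVA+anti-PD1, 1366, 1730 and 1471 in Lenvatinib+anti-PD1 and 929, 647 and 771 in Control. mt-Nd6, the only mRNA of the light-strand transcript, had 800.3, 809.6 and 824 FPKM in Co+Len@OVA+anti-PD1, 1310, 1602 and 1370 in Lenvatinib+anti-PD1 and 752, 421 and 584 in Control. RNA was selected for poly(A), so these values are the part of mt-Nd6 RNA that was captured. In both mt-Nd5 and mt-Nd6 Lenvatinib+anti-PD1 was highest. Control library 1 was within the Co+Len@OVA+anti-PD1 range for mt-Nd5 and below it for mt-Nd6. In Lenvatinib+anti-PD1 mt-Nd5 rose by 0.97 (SE 0.14, adjusted p = 0.00249) and mt-Nd6 by 1.32 (SE 0.19, adjusted p = 0.00249). In Co+Len@OVA+anti-PD1 the mt-Nd6 difference from Control of 0.51 (adjusted p = 0.0685) did not pass although the groups did not overlap. The ends of these genes overlap by 14 bases on opposite strands, and whether strand was used in counting is not stated, so a part of their reads may be shared.

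Complex III, which passes electrons from ubiquinol to cytochrome c, has mt-Cytb as its only mitochondrial gene. mt-Cytb had 2775, 2975 and 2918 FPKM in Co+Len@OVA+anti-PD1, 4630, 5532 and 5017 in Lenvatinib+anti-PD1 and 2987, 2024 and 2404 in Control. The Lenvatinib+anti-PD1 libraries were the highest of all, and Control library 1 exceeded every Co+Len@OVA+anti-PD1 library. mt-Cytb rose by 1.05 (SE 0.14, adjusted p = 0.00182) in Lenvatinib+anti-PD1 against Control. Between Co+Len@OVA+anti-PD1 and Lenvatinib+anti-PD1 it fell by 0.81 (SE 0.14, adjusted p = 0.00421).

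Complex IV, cytochrome c oxidase, passes electrons to oxygen, and mt-Co1, mt-Co2 and mt-Co3 form its core. mt-Co1 had 11323, 11890 and 11937 FPKM in Co+Len@OVA+anti-PD1, 15255, 17363 and 16332 in Lenvatinib+anti-PD1 and 15447, 11431 and 13015 in Control. Control library 1 was within the Lenvatinib+anti-PD1 range, and Control library 2 within that of Co+Len@OVA+anti-PD1. The log2 differences from Control, -0.17 (SE 0.11, adjusted p = 0.26) in Co+Len@OVA+anti-PD1 and 0.30 (SE 0.11, adjusted p = 0.0864) in Lenvatinib+anti-PD1, did not pass. Between the treated groups mt-Co1 fell by 0.48 (SE 0.11, adjusted p = 0.0166), a call lost in some fits that left out 1 library.

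mt-Co2, which carries the copper site that accepts electrons from cytochrome c, had 3889, 4250 and 4173 FPKM in Co+Len@OVA+anti-PD1, 5452, 5825 and 5580 in Lenvatinib+anti-PD1 and 3948, 3684 and 3749 in Control. Its Control libraries were close together, unlike those of mt-Co1, and Lenvatinib+anti-PD1 lay above them by 0.57 (SE 0.07, adjusted p = 0.00117). mt-Co3 had 3511, 3695 and 3669 FPKM in Co+Len@OVA+anti-PD1, 4685, 5248 and 5015 in Lenvatinib+anti-PD1 and 4680, 3237 and 3792 in Control. Control library 1 nearly reached the lowest Lenvatinib+anti-PD1 library, and the difference of 0.37 (adjusted p = 0.0696) between those groups did not pass. In Co+Len@OVA+anti-PD1 against Lenvatinib+anti-PD1 mt-Co2 fell by 0.45 (SE 0.07, adjusted p = 0.00214) and mt-Co3 by 0.46 (SE 0.13, adjusted p = 0.0296). The call of mt-Co3 was lost in some fits that left out 1 library.

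Complex V, ATP synthase, uses the proton gradient to make ATP, and mt-Atp6 and mt-Atp8 encode parts of its membrane domain. Their reading frames overlap by 43 bases on 1 mRNA. mt-Atp6 had 3933, 4685 and 4485 FPKM in Co+Len@OVA+anti-PD1, 6009, 6762 and 6168 in Lenvatinib+anti-PD1 and 5815, 4015 and 4731 in Control. mt-Atp8 had 3622, 4249 and 4069 FPKM in Co+Len@OVA+anti-PD1, 5103, 5743 and 5529 in Lenvatinib+anti-PD1 and 5525, 3883 and 4553 in Control. Control library 1 was the highest of its group in both genes and lay within the Lenvatinib+anti-PD1 range for mt-Atp8. Neither passed against Control: mt-Atp6 differed by -0.14 in Co+Len@OVA+anti-PD1 (adjusted p = 0.452) and by 0.39 in Lenvatinib+anti-PD1 (adjusted p = 0.0724), and mt-Atp8 by -0.21 in Co+Len@OVA+anti-PD1 (adjusted p = 0.23) and by 0.24 in Lenvatinib+anti-PD1 (adjusted p = 0.213). Both fell in Co+Len@OVA+anti-PD1 against Lenvatinib+anti-PD1, mt-Atp6 by 0.53 (adjusted p = 0.0228) and mt-Atp8 by 0.46 (adjusted p = 0.0338), calls that were lost in some fits that left out 1 library.

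The rRNAs mt-Rnr1 (12S) and mt-Rnr2 (16S), which form the mitochondrial ribosome, followed another order of groups. Libraries selected for poly(A) do not measure total rRNA, so these values are the part of each rRNA that was captured. mt-Rnr1 had 446, 271 and 354 FPKM in Co+Len@OVA+anti-PD1, 231, 271 and 262 in Lenvatinib+anti-PD1 and 167, 228 and 196 in Control. mt-Rnr2 had 288, 150.2 and 221 FPKM in Co+Len@OVA+anti-PD1, 119, 170.1 and 149 in Lenvatinib+anti-PD1 and 86.1, 99.8 and 99.6 in Control. Both treated groups were above Control in every library, and Co+Len@OVA+anti-PD1 varied most, with library 1 high and library 2 low. In Co+Len@OVA+anti-PD1 against Control mt-Rnr1 rose by 0.84 (SE 0.18, adjusted p = 0.0114) and mt-Rnr2 by 1.16 (SE 0.23, adjusted p = 0.00761). The differences between Lenvatinib+anti-PD1 and Control, 0.38 (adjusted p = 0.174) and 0.60 (adjusted p = 0.092), did not pass, nor did those between Co+Len@OVA+anti-PD1 and Lenvatinib+anti-PD1, 0.46 (adjusted p = 0.0906) and 0.55 (adjusted p = 0.0992). Summed rRNA was 1.88%, 0.981% and 1.37% of summed mRNA in Co+Len@OVA+anti-PD1, 0.619%, 0.684% and 0.686% in Lenvatinib+anti-PD1 and 0.53%, 0.916% and 0.73% in Control. Co+Len@OVA+anti-PD1 was thus the highest group by this ratio, without overlap.

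The 22 tRNA genes are 59 to 75 bases long, shorter than the sequenced reads, so a full read counted at a tRNA gene extends into its neighbours, and FPKM of such short genes depends on length settings that are not given. Their sums were 1010, 965 and 1031 FPKM in Co+Len@OVA+anti-PD1, 1376, 1755 and 1573 in Lenvatinib+anti-PD1 and 1203, 741 and 914 in Control. By mean level mt-Ts1 (tRNA-Ser), mt-Te (tRNA-Glu), mt-Tl1 (tRNA-Leu) and mt-Tp (tRNA-Pro) were far above the rest. Their sequences are shown, with the anticodon in capitals, because they held most of the tRNA signal; all but mt-Tl1 lie on the light-strand transcript, opposite the transcript that carries 12 of the 13 mRNAs:
mt-Ts1: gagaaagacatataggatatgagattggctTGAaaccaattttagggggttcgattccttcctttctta
mt-Te: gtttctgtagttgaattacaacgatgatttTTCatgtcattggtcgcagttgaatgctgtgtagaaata
mt-Tl1: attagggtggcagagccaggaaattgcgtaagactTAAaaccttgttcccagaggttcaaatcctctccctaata
mt-Tp: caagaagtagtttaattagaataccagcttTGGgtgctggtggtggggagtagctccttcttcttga

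mt-Ts1 had 512, 585 and 567 FPKM in Co+Len@OVA+anti-PD1, 779.9, 876 and 836 in Lenvatinib+anti-PD1 and 766, 519.6 and 615 in Control. Its pattern over the libraries was that of mt-Co1, whose gene overlaps it by 3 bases on the opposite strand, and the ratio of mt-Ts1 to mt-Co1 was between 0.0452 and 0.0512 in all 9 libraries. mt-Te had 144, 120.4 and 137 FPKM in Co+Len@OVA+anti-PD1, 328, 444 and 384 in Lenvatinib+anti-PD1 and 198, 68.0 and 112 in Control. Lenvatinib+anti-PD1 stood clear of both other groups for mt-Te, which lies between mt-Nd6 and mt-Cytb. mt-Te rose by 1.73 (SE 0.33, adjusted p = 0.00847) in Lenvatinib+anti-PD1 against Control and fell by 1.52 (SE 0.33, adjusted p = 0.0124) in Co+Len@OVA+anti-PD1 against Lenvatinib+anti-PD1. mt-Ts1 fell by 0.58 (SE 0.14, adjusted p = 0.0152) in the same comparison, a call lost in some fits that left out 1 library, and did not pass against Control.

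mt-Tl1, between mt-Rnr2 and mt-Nd1, had 110.1, 100.2 and 112 FPKM in Co+Len@OVA+anti-PD1, 74.5, 126 and 94.3 in Lenvatinib+anti-PD1 and 57.9, 48.0 and 49.7 in Control. Both treated groups were above Control throughout and overlapped each other. It rose by 1.05 (SE 0.17, adjusted p = 0.00363) in Co+Len@OVA+anti-PD1 and by 0.89 (SE 0.17, adjusted p = 0.00904) in Lenvatinib+anti-PD1 against Control. mt-Tp had 70.0, 59.5 and 66.3 FPKM in Co+Len@OVA+anti-PD1, 69.5, 91.3 and 94.3 in Lenvatinib+anti-PD1 and 93.1, 51.4 and 65.6 in Control, with all groups overlapping and no call.

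The other tRNAs were lower by far, from 0 to 36.5 FPKM in any library. mt-Tl1, mt-Ti (tRNA-Ile), mt-Tq (tRNA-Gln), mt-Tm (tRNA-Met), mt-Tg (tRNA-Gly), mt-Ts2 (tRNA-Ser) and mt-Tl2 (tRNA-Leu) rose in both treated groups against Control. Against Control mt-Tf (tRNA-Phe) and mt-Td (tRNA-Asp) passed in Co+Len@OVA+anti-PD1 and not in Lenvatinib+anti-PD1, and for mt-Th (tRNA-His) and mt-Te it was the reverse. The difference between the treated groups itself passed for mt-Td and mt-Te and not for mt-Tf and mt-Th. Of these, mt-Tf, mt-Td, mt-Tg, mt-Th, mt-Ts2 and mt-Tl2 averaged about 0.5 FPKM or less in Control. They passed the filter on low values through a treated group, so their calls add no support to the counts. mt-Tg had 5.06, 2.21 and 2.89 FPKM in Co+Len@OVA+anti-PD1, 0.707, 2.58 and 1.06 in Lenvatinib+anti-PD1 and 0.103, 0.217 and 0.136 in Control. Every treated library exceeded every Control library, with a log2(FPKM + 0.5) difference of 2.51 (SE 0.37, adjusted p = 0.00232) in Co+Len@OVA+anti-PD1.

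mt-Tq, which lies opposite the end of mt-Ti, had 10.9, 4.74 and 6.71 FPKM in Co+Len@OVA+anti-PD1, 8.46, 17.9 and 12.4 in Lenvatinib+anti-PD1 and 1.55, 1.91 and 1.98 in Control. Control stood below both treated groups without overlap. mt-Td had 3.71, 0.958 and 3.53 FPKM in Co+Len@OVA+anti-PD1, 0.275, 0.313 and 0.705 in Lenvatinib+anti-PD1 and 0.301, 0.281 and 0.442 in Control. mt-Td was the only member that rose in Co+Len@OVA+anti-PD1 against Lenvatinib+anti-PD1 (log2 difference 1.68, SE 0.40, adjusted p = 0.0166), a call lost when some single libraries were left out. mt-Ta, mt-Tn, mt-Tc and mt-Ty, neighbours on the light-strand transcript (tRNA-Ala, tRNA-Asn, tRNA-Cys and tRNA-Tyr), had 12.3 to 27.4 FPKM in Co+Len@OVA+anti-PD1, 15.5 to 31.7 in Lenvatinib+anti-PD1 and 7.32 to 22.3 in Control. mt-Tw (tRNA-Trp), mt-Tr (tRNA-Arg), mt-Tt (tRNA-Thr) and mt-Tk (tRNA-Lys) had 0.737 to 6.4 FPKM in Co+Len@OVA+anti-PD1, 0.246 to 9.84 in Lenvatinib+anti-PD1 and 0.413 to 3.92 in Control. None of these 8 passed in any comparison. mt-Tv (tRNA-Val) averaged under 0.5 FPKM, was listed at 0 in 1 library each of Lenvatinib+anti-PD1 and Control, and was not tested.

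**Figure D4:**
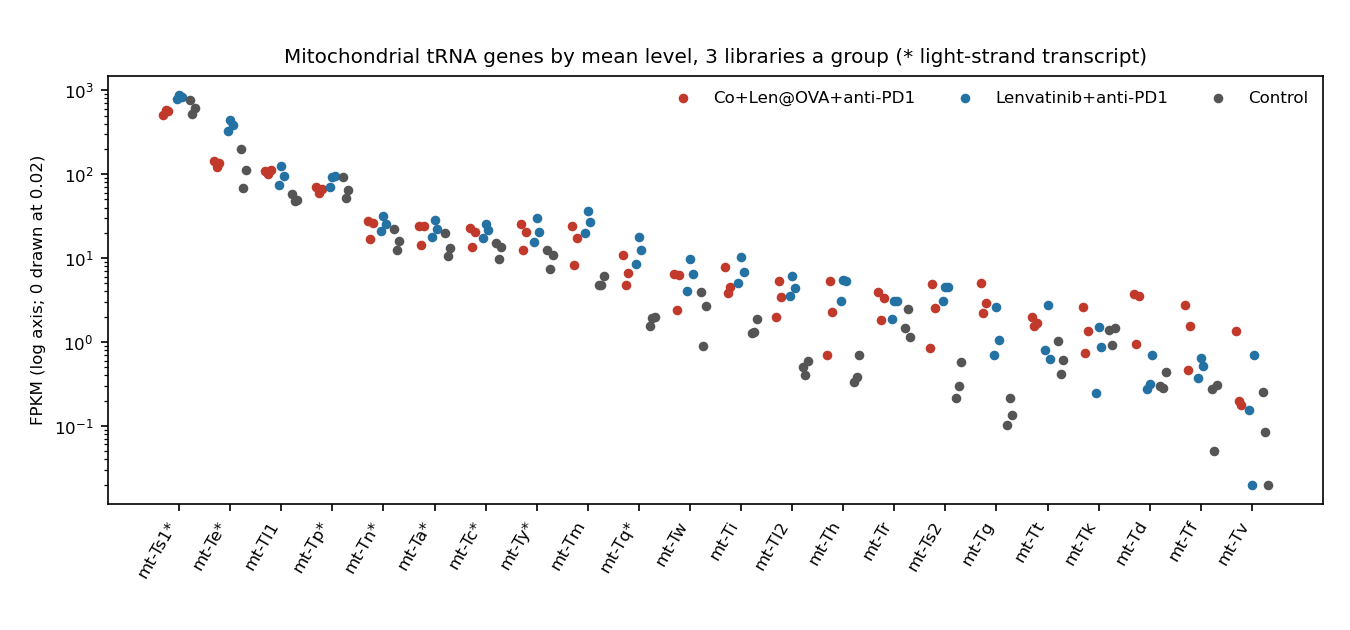
FPKM (log axis, values of 0 drawn at the lower edge) of the 22 tRNA genes by decreasing mean, in each library of Co+Len@OVA+anti-PD1, Lenvatinib+anti-PD1 and Control from left to right; an asterisk marks light-strand transcripts. mt-Ts1, mt-Te, mt-Tl1 and mt-Tp stand above the rest, and for mt-Tq, mt-Tg and mt-Tl2 the Control points lie lowest.

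Because all these RNAs come from the same genome, ratios between them within a library do not depend on how libraries were scaled, although they do depend on the split of reads with the chromosome 1 copies. The ratios named here were chosen after their values were seen and are given without a test. The mRNAs did not move in step. mt-Co1 to mt-Cytb was 4.08, 4.00 and 4.09 in Co+Len@OVA+anti-PD1, 3.30, 3.14 and 3.26 in Lenvatinib+anti-PD1 and 5.17, 5.65 and 5.41 in Control. mt-Co3 to mt-Cytb was 1.27, 1.24 and 1.26 in Co+Len@OVA+anti-PD1, 1.01, 0.949 and 1.00 in Lenvatinib+anti-PD1 and 1.57, 1.60 and 1.58 in Control. In both ratios the 3 groups were apart, Lenvatinib+anti-PD1 lowest and Control highest, with less relative spread between libraries of a group than the levels themselves.

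mt-Nd3 to mt-Co3 was 0.134, 0.168 and 0.152 in Co+Len@OVA+anti-PD1, 0.175, 0.146 and 0.155 in Lenvatinib+anti-PD1 and 0.0669, 0.0819 and 0.0776 in Control. Here both treated groups overlapped and stood above Control. mt-Nd6 to mt-Nd5, a light-strand against a heavy-strand mRNA, was 0.827 to 0.892 in Co+Len@OVA+anti-PD1, 0.926 to 0.959 in Lenvatinib+anti-PD1 and 0.652 to 0.81 in Control, again without overlap. Over all 78 pairs of mRNAs, the ratio did not overlap between Co+Len@OVA+anti-PD1 and Control for 50 pairs, between Lenvatinib+anti-PD1 and Control for 61, and between Co+Len@OVA+anti-PD1 and Lenvatinib+anti-PD1 for 40. Pairs share genes and are not independent. Pairs of other genes were not counted, so whether mitochondrial mRNAs differ from them in this is not known. In 27 pairs all 3 groups were apart with Co+Len@OVA+anti-PD1 in the middle. As shares of summed mRNA FPKM, mt-Co1 took 28.4%, 27.1% and 32.2% on average in Co+Len@OVA+anti-PD1, Lenvatinib+anti-PD1 and Control, and mt-Cytb took 6.99%, 8.38% and 5.95%.

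**Figure D5:**
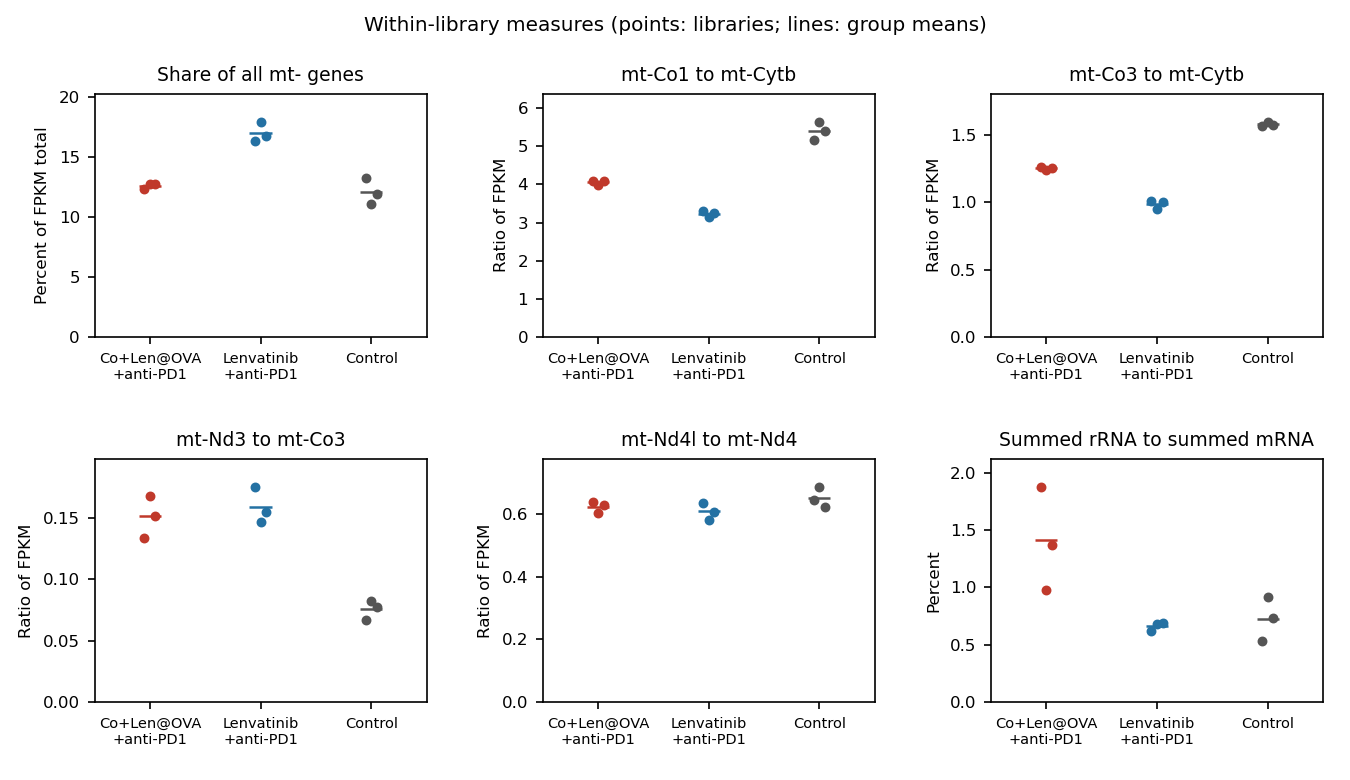
Values per library (points) for the mitochondrial share of the FPKM total in percent, 4 ratios of FPKM (mt-Co1 to mt-Cytb, mt-Co3 to mt-Cytb, mt-Nd3 to mt-Co3 and mt-Nd4l to mt-Nd4) and summed rRNA as percent of summed mRNA, for Co+Len@OVA+anti-PD1, Lenvatinib+anti-PD1 and Control from left to right. The ratios to mt-Cytb separate all 3 groups, and mt-Nd4l to mt-Nd4 overlaps in all.

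Nuclear genes that serve mitochondrial gene expression were set beside these values by their counts. Over all genes tested, 20.9% rose and 12.7% fell in Co+Len@OVA+anti-PD1 against Control, 13.8% rose and 9.87% fell in Lenvatinib+anti-PD1 against Control, and 17.3% rose and 12.0% fell in Co+Len@OVA+anti-PD1 against Lenvatinib+anti-PD1. Of 23 genes of mitochondrial DNA transcription and maintenance, 3 rose and 1 fell in Co+Len@OVA+anti-PD1 against Control, 8 rose and 1 fell in Lenvatinib+anti-PD1 against Control, and 0 rose and 4 fell in Co+Len@OVA+anti-PD1 against Lenvatinib+anti-PD1. The share that rose was 13% in Co+Len@OVA+anti-PD1, below that of all genes, and 34.8% in Lenvatinib+anti-PD1, above it. Tfam, which packages mitochondrial DNA and starts its transcription, had 7.5, 7.64 and 7.62 FPKM in Co+Len@OVA+anti-PD1, 11.0, 9.66 and 10.3 in Lenvatinib+anti-PD1 and 7.32, 8.06 and 7.57 in Control. Lenvatinib+anti-PD1 was above both other groups, which overlapped. Tfam rose by 0.41 (SE 0.07, adjusted p = 0.00425) in Lenvatinib+anti-PD1 against Control and fell by 0.42 (SE 0.07, adjusted p = 0.0029) in Co+Len@OVA+anti-PD1 against Lenvatinib+anti-PD1, but by libraries 1 and 2 alone neither difference passed (0.40, adjusted p = 0.225, and -0.42, adjusted p = 0.176). Polrmt, the mitochondrial RNA polymerase, had 4.95, 4.44 and 4.78 FPKM in Co+Len@OVA+anti-PD1, 5.05, 5.24 and 5.22 in Lenvatinib+anti-PD1 and 3.35, 4.97 and 4.68 in Control, and passed in no comparison.

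Of 34 genes of mitochondrial RNA processing and stability, 5 rose and 4 fell in Co+Len@OVA+anti-PD1 against Control, 11 rose and 1 fell in Lenvatinib+anti-PD1 against Control, and 1 rose and 7 fell between the treated groups. The share that rose was 14.7% in Co+Len@OVA+anti-PD1 and 32.4% in Lenvatinib+anti-PD1, again below and above that of all genes. Lrpprc, which stabilises mitochondrial mRNAs, had 6.79, 7.26 and 7.22 FPKM in Co+Len@OVA+anti-PD1, 9.11, 8.92 and 9.61 in Lenvatinib+anti-PD1 and 4.83, 6.8 and 6.05 in Control. It was highest in Lenvatinib+anti-PD1, where it rose by 0.61 (SE 0.11, adjusted p = 0.00634) against Control. Mrm3, which methylates mitochondrial 16S rRNA, had 3.02, 4.08 and 3.91 FPKM in Co+Len@OVA+anti-PD1, 4.45, 4.2 and 4.51 in Lenvatinib+anti-PD1 and 2.16, 2.97 and 2.51 in Control. Every treated library was above every Control library, and Mrm3 rose by 0.45 (adjusted p = 0.0321) in Co+Len@OVA+anti-PD1 and by 0.69 (adjusted p = 0.00821) in Lenvatinib+anti-PD1.

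A further list of 20 genes held mitochondrial aminoacyl-tRNA synthetases and the amidotransferase subunits Gatb, Gatc and Qrsl1. Of these 20 genes, 9 rose and 1 fell in Co+Len@OVA+anti-PD1 against Control and 7 rose and 1 fell in Lenvatinib+anti-PD1 against Control, or 45% higher in Co+Len@OVA+anti-PD1 and 35% higher in Lenvatinib+anti-PD1, both above the share of all genes. Gatb, a subunit of the amidotransferase that forms glutaminyl-tRNA, had 1.52, 1.78 and 1.89 FPKM in Co+Len@OVA+anti-PD1, 1.8, 2.17 and 2.31 in Lenvatinib+anti-PD1 and 1.02, 0.884 and 0.962 in Control. Both treated groups were above Control, Co+Len@OVA+anti-PD1 by 0.61 (adjusted p = 0.00686) and Lenvatinib+anti-PD1 by 0.83 (adjusted p = 0.00252). Of 79 mitochondrial ribosome genes, 20 rose and 4 fell in Co+Len@OVA+anti-PD1 against Control, 22 rose and 0 fell in Lenvatinib+anti-PD1 against Control, and 3 rose and 13 fell between the treated groups. The share that rose in Co+Len@OVA+anti-PD1, 25.3%, was near that of all genes, and the share in Lenvatinib+anti-PD1 was 27.8%. Mrps30 went the other way in Co+Len@OVA+anti-PD1, with 5.72, 5.04 and 5.32 FPKM there, 8.3, 8.52 and 8.14 in Lenvatinib+anti-PD1 and 9.39, 8.64 and 8.9 in Control, and fell by 0.69 (SE 0.07, adjusted p = 0.000371) against Control.

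Of 75 nuclear subunits of complexes I to V that were tested, 9 rose and 4 fell in Co+Len@OVA+anti-PD1 against Control, 22 rose and 2 fell in Lenvatinib+anti-PD1 against Control, and 2 rose and 16 fell in Co+Len@OVA+anti-PD1 against Lenvatinib+anti-PD1. Their median log2 differences in these comparisons were 0.03, 0.21 and -0.15, beside 0.24, 0.94 and -0.53 for the mitochondrial mRNAs. The 12.0% that rose in Co+Len@OVA+anti-PD1 against Control was below the share of all genes, and the 29.3% in Lenvatinib+anti-PD1 above it. Complex I had 13 of 36 nuclear subunits higher in Lenvatinib+anti-PD1 against Control, among them Ndufs5 at 21.9, 24.5 and 22.4 FPKM in Co+Len@OVA+anti-PD1, 25.2, 28.6 and 28.8 in Lenvatinib+anti-PD1 and 18.1, 16.6 and 17.0 in Control. Uqcr11 of complex III had 37.3, 28.4 and 33.2 FPKM in Co+Len@OVA+anti-PD1, 56.1, 59.9 and 53.7 in Lenvatinib+anti-PD1 and 38.3, 40.7 and 35.4 in Control. Like mt-Cytb of the same complex it stood highest in Lenvatinib+anti-PD1, and it fell by 0.78 (SE 0.10, adjusted p = 0.00125) between the treated groups.

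Cox5a of complex IV had 38.1, 43.4 and 42.9 FPKM in Co+Len@OVA+anti-PD1, 39.4, 50.3 and 45.6 in Lenvatinib+anti-PD1 and 31.3, 32.9 and 32.8 in Control. It rose by 0.35 (adjusted p = 0.0238) in Co+Len@OVA+anti-PD1 and by 0.47 (adjusted p = 0.0101) in Lenvatinib+anti-PD1 against Control. Atp5j of complex V had 22.3, 25.9 and 24.2 FPKM in Co+Len@OVA+anti-PD1, 23.7, 27.1 and 24.5 in Lenvatinib+anti-PD1 and 17.2, 16.6 and 16.7 in Control, and rose by 0.51 (adjusted p = 0.00212) in Co+Len@OVA+anti-PD1 and by 0.56 (adjusted p = 0.00177) in Lenvatinib+anti-PD1. Sdha belongs to complex II, which has no mitochondrially encoded subunit. It had 44.2, 34.2 and 38.3 FPKM in Co+Len@OVA+anti-PD1, 45.3, 58.6 and 54.5 in Lenvatinib+anti-PD1 and 34.4, 45.1 and 42.1 in Control, and passed only between the treated groups, where it fell by 0.44 (adjusted p = 0.049). By libraries 1 and 2 alone 0 genes of the nuclear lists described here passed against Control in limma, and 1 subunit, of complex I, fell between the treated groups.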

How the data were processed

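Per the labels' protocols, RNA was selected for poly(A), and sequencing was paired-end on libraries that keep strand by dUTP. Of the tools, fastp, StringTie and edgeR are named in the submitters' processing notes, without versions. Which aligner, build and annotation were used, and whether strand entered the counting, is not given in the sources used here. Coordinates are therefore left out. The deposited table holds FPKM computed by the authors, under a name that says raw counts. Depth cannot be had from FPKM, so no counting interval is given, and low values carry an unknown counting error.

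The 15353 of 32761 genes whose mean reached 0.5 FPKM were tested on log2(FPKM + 0.5), a scale that understates changes of low genes, with limma 3.58.1 in R 4.3.3 (trend and robust empirical Bayes) in 1 fit of the 9 libraries, with Benjamini-Hochberg adjustment at 0.05. FPKM were not rescaled. The labels do not say that the 3 libraries of a group are separate animals, so p-values measure the spread between these libraries. The fit was tested on simulated data. Replicate numbers did not pair the libraries.

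The 13 mRNAs and 2 rRNAs are given in every library, tRNAs with a mean of at least 0.5 FPKM are named, some by range only, and mt-Tv is named as not tested. From each nuclear list at most the called gene with the largest change in the comparison with most calls was named, plus Tfam, Polrmt, Lrpprc and Ppargc1a. The mitochondrial genes, the lists and the tests were chosen with earlier results of these data known. Older symbols of ATP synthase genes were matched through RefSeq synonyms, and 75 of 78 listed nuclear subunits were found. Sequences are GENCODE mouse transcripts of build GRCm38, given in the sense of each transcript and searched for nuclear copies of at least 150 aligned bases with BLAST 2.17.0. Alternatives were other pseudocounts, filters, scalings and variance models, fits of 2 groups, a replicate block, libraries 1 and 2 alone, and each library left out.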

Additional observations from a re-analysis of the deposited data

How the results depend on the processing

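Without 1 library at a time, the members that rose were 9 to 17 between Co+Len@OVA+anti-PD1 and Control, 16 to 29 between Lenvatinib+anti-PD1 and Control and 0 to 4 between Co+Len@OVA+anti-PD1 and Lenvatinib+anti-PD1, where 9 to 15 fell. All genes called were 2849 to 5770, 1957 to 5053 and 2381 to 6592 in these comparisons. mt-Nd3, mt-Rnr1 and mt-Rnr2 rose in Co+Len@OVA+anti-PD1 against Control in all 9 such fits, and the 9 mRNAs that rose in Lenvatinib+anti-PD1 did so in all 9. Between the treated groups mt-Nd1, mt-Nd2, mt-Nd3, mt-Nd4, mt-Nd4l, mt-Nd5, mt-Co2, mt-Cytb and mt-Te fell in all 9. Libraries 1 and 2 alone left 0 members and 80, 53 and 365 genes, with 3382, 2560 and 2864 genes at an unadjusted p under 0.05. The fit of the 2 groups only called 3279 genes between Co+Len@OVA+anti-PD1 and Control, in place of 5155, and 6229 between the treated groups, in place of 4507. With a replicate block 14, 17 and 1 members rose and 0, 0 and 11 fell. Of all genes tested, 2445, 1617 and 1853 rose and 1580, 1136 and 1454 fell in that fit. The replicate numbers share no stated origin, and deviations of same-numbered libraries correlated at -0.25 to 0.08.

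Other scalings left 12 to 19, 18 to 23 and 1 members higher, with 15 lower between the treated groups in each. They moved the split of all genes: higher and lower calls were 3209 and 1946, 2120 and 1516, and 2657 and 1850 as reported, 2216 and 2699, 1962 and 1798, and 2084 and 2333 by median-of-ratios, 2499 and 2435, 1963 and 1760, and 2364 and 2108 by upper quartile, and 3100 and 1643, 1446 and 1685, and 3355 and 1327 at equal totals. The median log2 difference of all genes between Co+Len@OVA+anti-PD1 and Control was 0.13 as reported and 0.02 by median-of-ratios. There mt-Co2 changed sign, to -0.02, with no call either way.

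Leaving out 1 library turned the sign of values that never passed: mt-Co3 (-0.22 to 0.05), mt-Te (-0.16 to 0.61), mt-Tk (-0.21 to 0.46) and mt-Tp (-0.26 to 0.16) between Co+Len@OVA+anti-PD1 and Control, mt-Td (-0.08 to 0.24) between Lenvatinib+anti-PD1 and Control, and mt-Ta (-0.30 to 0.10), mt-Tc (-0.34 to 0.03), mt-Tn (-0.30 to 0.06), mt-Ty (-0.42 to 0.09), mt-Tl1 (-0.02 to 0.36) and mt-Tr (-0.07 to 0.41) between the treated groups. The cause was not tested. The mean mitochondrial share was 12.6%, 17.0% and 12.1% in Co+Len@OVA+anti-PD1, Lenvatinib+anti-PD1 and Control. It was 12.1% in Co+Len@OVA+anti-PD1 from mRNAs only. With the chromosome 1 copies, an alternative chosen after seeing the data, it was 18.0%, 24.2% and 17.4%, and with each copy added to its gene 13, 18 and 1 members rose and 15 fell between the treated groups. Of all genes 3208, 2116 and 2657 then rose, and 1842 fell between the treated groups. Depth is unknown, so how firmly the low tRNA values are measured cannot be said.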

Other observations

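Nuclear genes of mitochondrial upkeep outside gene expression moved in both directions. Over all genes tested, 20.9% rose and 12.7% fell in Co+Len@OVA+anti-PD1 against Control, and 13.8% rose and 9.87% fell in Lenvatinib+anti-PD1 against Control. Of 14 genes of mitochondrial fusion, fission and mitophagy tested, 1 rose and 4 fell in Co+Len@OVA+anti-PD1 against Control and 0 rose and 4 fell in Lenvatinib+anti-PD1 against Control, a share of 28.6% lower in each. Bnip3, a hypoxia-induced mitophagy receptor, had 107, 113 and 112 FPKM in Co+Len@OVA+anti-PD1, 108, 104 and 111 in Lenvatinib+anti-PD1 and 273, 197 and 215 in Control. It was lower than Control in all treated libraries, with a log2 difference of -1.03 (SE 0.11, adjusted p = 0.000615 in limma) in Co+Len@OVA+anti-PD1 and of -1.07 (SE 0.11, adjusted p = 0.000638) in Lenvatinib+anti-PD1. Of 10 regulators of mitochondrial biogenesis, 2 rose and 1 fell in Co+Len@OVA+anti-PD1 and 1 rose and 1 fell in Lenvatinib+anti-PD1 against Control, shares near those of all genes. Ppara, the fatty acid sensing nuclear receptor, had 0.315, 0.269 and 0.258 FPKM in Co+Len@OVA+anti-PD1, 0.53, 0.954 and 0.553 in Lenvatinib+anti-PD1 and 2.28, 1.51 and 1.62 in Control, and fell in both treated groups. The coactivator Ppargc1a, at 1.05, 0.717 and 0.931 FPKM in Co+Len@OVA+anti-PD1, 0.42, 0.738 and 0.491 in Lenvatinib+anti-PD1 and 0.687, 0.484 and 0.545 in Control, passed in no comparison.

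Of 13 genes of the mitochondrial unfolded protein response, 2 rose and 2 fell in Co+Len@OVA+anti-PD1 and 5 rose and 2 fell in Lenvatinib+anti-PD1 against Control, or 15.4% higher in Co+Len@OVA+anti-PD1 and 38.5% higher in Lenvatinib+anti-PD1. Ddit3, a transcription factor of several stress responses, had 10.8, 9.11 and 10.5 FPKM in Co+Len@OVA+anti-PD1, 9.52, 10.1 and 9.72 in Lenvatinib+anti-PD1 and 47.8, 19.9 and 29.8 in Control. All treated libraries were below all Control libraries, and Control library 1 was the highest. Atf5, a transcription factor of the mitochondrial stress response, named after its values were seen, had 20.7, 19.8 and 20.1 FPKM in Co+Len@OVA+anti-PD1, 38.0, 36.1 and 38.3 in Lenvatinib+anti-PD1 and 15.1, 12.3 and 14.5 in Control. The 3 groups were apart, and Atf5 rose by 0.52 (SE 0.08, adjusted p = 0.00226) in Co+Len@OVA+anti-PD1 and by 1.40 (SE 0.08, adjusted p = 4.25e-05) in Lenvatinib+anti-PD1 against Control. By libraries 1 and 2 alone Atf5 passed in Lenvatinib+anti-PD1 against Control (1.41, adjusted p = 0.036 in limma) and between the treated groups (-0.86, adjusted p = 0.0472), and Bnip3, Ppara, Ppargc1a and Ddit3 passed in no comparison.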
